A study of Mus musculus with 12 samples.

Results

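Regions of open chromatin gained in the metastatic niche of both tumour models numbered 868 of the 83727 regions (1.04%) that the peak lists of 12 libraries formed when overlapping peaks were merged. A region was a member if a peak of at least 5 of the 6 niche libraries overlapped it and a peak of at most 1 of the 6 distal libraries did. Members were thus chosen by the presence of niche and distal peaks, and that contrast is described below without a test. The opposite rule, with at least 5 distal and at most 1 niche library, found 65 regions (0.0776%). The libraries came from 4 groups of 3 samples: 4T1 niche, 4T1 distal, CT26 niche and CT26 distal. All groups shared BALB/c mice aged 6 to 8 weeks, which had received 800000 labelled tumour cells by vein and whose lungs were taken after 7 days. 4T1 is a mammary carcinoma line and CT26 a colon carcinoma line, both derived from BALB/c mice. Each sample pooled 5 lungs, and 50000 alveolar type II (AT2) cells were sorted for Omni-ATAC-seq from the niche around metastases or from lung away from them. AT2 cells of lungs without tumour were not analysed here, so both sites come from tumour-bearing lungs.

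AT2 cells are the epithelial cells of the alveolus that make and recycle surfactant, and they act as progenitors when the alveolus is injured. In ATAC-seq the Tn5 transposase cuts DNA that is not wrapped in nucleosomes, so that promoters and enhancers of a cell appear as peaks. Enhancers, which lie between genes or within introns and are bound by sequence-specific factors, differ between cell states more than most promoters do. The gene nearest to a region is named here for orientation, and whether the region acts on that gene was not tested.

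Most members lay away from promoters, but 43 of them touched the promoter window of a protein-coding gene and 21 covered the whole window of 22 genes. A window here is the 300 bases from 250 before to 50 after a start site in the RefSeq table of GRCm38.p6. The upstream 250 bases are printed for the 6 of these genes with a single covered window whose members had the longest mean length under niche peaks, since these are the members whose sequence is at hand. They are given 5′ to 3′ in the direction of the gene, and capitals mark matches to the motifs listed after them. These 6 were chosen after their values were seen.
Chst2, chr9:95407271-95407520, minus strand: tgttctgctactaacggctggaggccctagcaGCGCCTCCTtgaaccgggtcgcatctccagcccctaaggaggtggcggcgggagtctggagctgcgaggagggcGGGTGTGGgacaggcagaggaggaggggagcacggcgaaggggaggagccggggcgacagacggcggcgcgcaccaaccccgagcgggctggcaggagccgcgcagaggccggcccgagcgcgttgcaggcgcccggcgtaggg
Kcns3, chr12:11150374-11150623, minus strand: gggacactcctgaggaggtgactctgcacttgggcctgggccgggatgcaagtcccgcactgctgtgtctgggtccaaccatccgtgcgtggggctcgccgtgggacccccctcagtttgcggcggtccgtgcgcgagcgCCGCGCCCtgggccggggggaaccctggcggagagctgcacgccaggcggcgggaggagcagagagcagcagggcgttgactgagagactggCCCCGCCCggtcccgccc
Ranbp3l, chr15:8967699-8967948, plus strand: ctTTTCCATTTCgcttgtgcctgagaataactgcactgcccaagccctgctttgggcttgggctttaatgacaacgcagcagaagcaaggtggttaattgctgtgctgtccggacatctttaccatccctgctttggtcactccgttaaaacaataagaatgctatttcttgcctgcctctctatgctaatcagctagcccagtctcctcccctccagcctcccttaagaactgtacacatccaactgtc
Nmu, chr5:76363778-76364027, minus strand: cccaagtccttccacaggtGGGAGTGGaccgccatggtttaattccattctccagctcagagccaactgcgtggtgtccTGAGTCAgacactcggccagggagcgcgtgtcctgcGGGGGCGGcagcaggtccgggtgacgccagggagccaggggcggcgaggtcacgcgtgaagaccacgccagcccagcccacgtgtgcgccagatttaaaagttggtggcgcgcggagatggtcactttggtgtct
Bdnf, chr2:109694159-109694408, plus strand: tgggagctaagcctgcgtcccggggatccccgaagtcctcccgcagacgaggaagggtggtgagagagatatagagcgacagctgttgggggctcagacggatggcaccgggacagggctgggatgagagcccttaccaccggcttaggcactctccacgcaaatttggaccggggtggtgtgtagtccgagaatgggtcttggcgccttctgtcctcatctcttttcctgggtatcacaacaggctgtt
Eml1, chr12:108370903-108371152, plus strand: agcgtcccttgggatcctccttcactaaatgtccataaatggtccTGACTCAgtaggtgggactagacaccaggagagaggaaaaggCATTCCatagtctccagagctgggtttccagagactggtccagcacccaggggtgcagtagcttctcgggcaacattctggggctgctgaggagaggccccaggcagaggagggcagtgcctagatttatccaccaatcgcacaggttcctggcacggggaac

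Both Nmu, the gene of the neuropeptide neuromedin U, and Eml1, of a microtubule-associated protein, carried a match to the AP-1 motif TGANTCA (N stands for any base). Eml1 also held a TEAD match (GGAATG), and Ranbp3l, of a Ran-binding protein, an IRF match (GAAA, any 2 bases, GAAA). Chst2, a sulfotransferase gene, Kcns3, a potassium channel subunit gene, and Nmu held matches to the KLF motif CCNCNCCC, and Chst2 to the CTCF core AGGNGGCNC. Bdnf, the gene of a neurotrophin, held no match to any of the 12 motifs searched. Both strands were searched, and no match in the printed sequences overlapped another.

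Over the 24 covered windows, counted over all 300 bases, the AP-1 motif was found in 6 (25%), beside 7.04% of the 21045 windows of protein-coding genes and 4.52% of those inside regions held by all 12 libraries. With the 24 windows that members touched only in part added, 6 of 48 (12.5%) held it. The 24 covered windows belonged to 22 genes and lay in 21 members, so some shared a member. Where such windows overlap, 1 site counts in each. STAT letters (TTCNNNGAA) stood in 20.8% of covered windows and 7.76% of all windows, and the CTCF core in 20.8% and 9.74%. ETS letters (CCGGAA) stood in 4.17% and 18.9%. For KLF the shares were 62.5% of covered windows and 57.1% of all windows, for TEAD 16.7% and 13.5%, for CEBP (TTGCNNAA) 12.5% and 10.3%, and for FOX (TGTTTNC) 12.5% and 18.3%. For NKX2 (CACTTNA) they were 8.33% and 10.9%, for IRF 4.17% and 3.38%, for GRHL (AACCNGTT) 4.17% and 1.97%, and for NF-kB (GGGA, any 2 bases, TTCC) 4.17% and 1.46%. A share of 4.17% is a single window, and a match is a description of letters, not of binding. Covered windows had a median GC content of 60.7% and 13.5 CpG, beside 56.7% and 13 in all windows and 62.7% and 23 in windows inside regions held by all 12 libraries.

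The members of these promoters differed in how evenly the niche libraries held them. At Chst2 (region chr9:95405980-95407952), peaks covered 1653, 1534 and 901 bp in the 4T1 niche libraries and no base in the 4T1 distal libraries. They covered 1736, 484 and 1340 bp in the CT26 niche libraries and none in the CT26 distal libraries. Peaks in niche libraries and none in distal ones are what the rule selects, so nothing is read from this separation. At Nmu (chr5:76363173-76364139) the 4T1 niche libraries had 832, 248 and 952 bp, against none, none and 584 bp in the 4T1 distal libraries, which overlapped. The CT26 niche libraries had 370, 318 and 505 bp there, and the CT26 distal libraries none. At Bdnf (chr2:109693360-109695054), 4T1 niche replicate 3 had no peak and the other two had 478 and 205 bp, while the CT26 niche libraries had 695, 1411 and 339 bp. All 6 distal libraries lacked it. At Eml1 (chr12:108370486-108371445) the gap lay in CT26, where niche replicates 1 and 2 had 656 and 461 bp and replicate 3 none.

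Across the 868 members, 4T1 niche libraries held nearly all and CT26 niche libraries fewer. The 4T1 niche libraries held 844, 831 and 839 members, against 185, 159 and 133 in the 4T1 distal libraries. The CT26 niche libraries held 793, 662 and 609, against 33, 9 and 40 in the CT26 distal libraries. The rule fixed the order of niche and distal. As a share of the regions each library held, members made up 1.28, 1.32 and 1.30% in the 4T1 niche libraries. In the CT26 niche libraries they made up 1.45, 1.31 and 1.22%, so the lower counts there stood beside fewer regions held. Of the 630 members missing from 1 niche library, 540 were missing from a CT26 library and 90 from a 4T1 library. Of the 559 members held by 1 distal library, 477 were held by a 4T1 library and 82 by a CT26 library. Within 4T1 alone, 348 members (40.1%) had all 3 niche libraries and no distal library, as did 2.59% of all regions. Within CT26 alone, 292 members (33.6%) did, as did 1.56% of all regions. The rule chose regions of this kind, so nothing is read from the higher shares among members. Members held by all 6 niche libraries and no distal library numbered 82.

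Within each model the niche lists were also the longer ones. Across models the 4T1 distal lists were longer than every CT26 niche list. That they held fewer members was largely set by the rule, so nothing is read from it. The lists held 66911, 63722 and 65485 peaks in the 4T1 niche and 58237, 57646 and 56330 in the 4T1 distal libraries. They held 55529, 51430 and 51005 in the CT26 niche and 48263, 42067 and 50093 in the CT26 distal libraries. In 4T1 the niche mean was 65373 ± 1597 and the distal mean 57404 ± 976 (SD, n = 3 each; exact permutation test, two-sided, p = 0.1, the smallest that 3 against 3 allows). In CT26 the means were 52655 ± 2498 and 46808 ± 4206 (exact permutation p = 0.1). The lists hold no read counts, so a longer list from deeper sequencing and one from more open chromatin cannot be told apart.

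**Figure D1:**
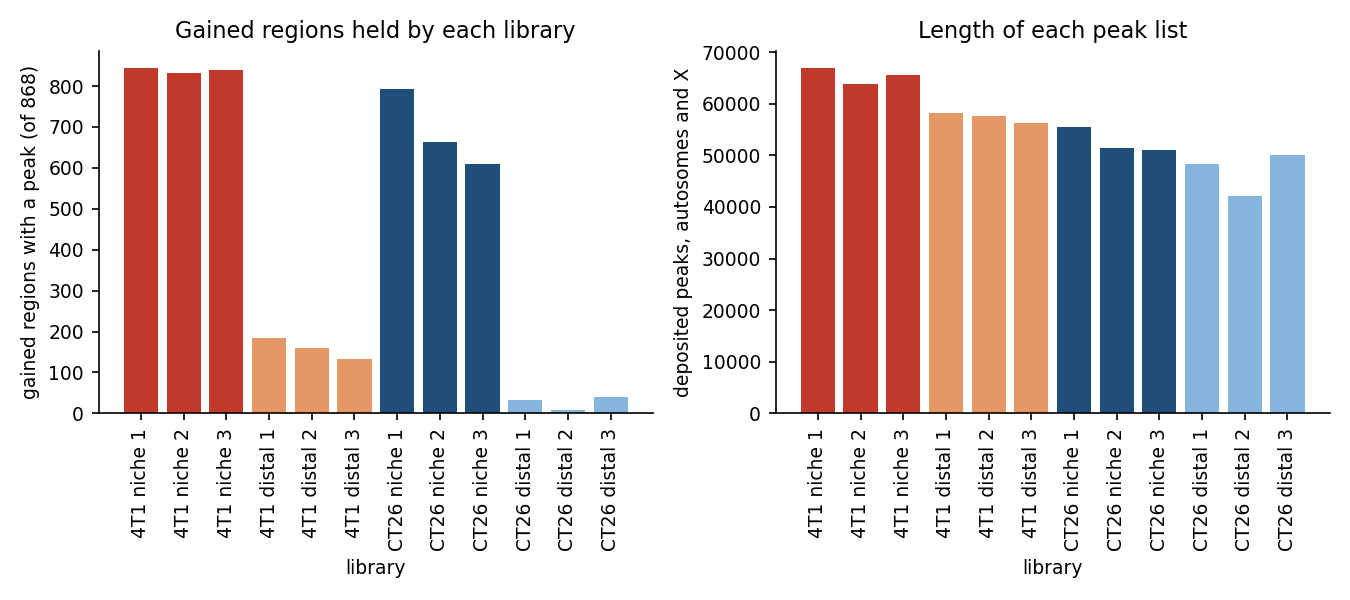
Left, number of the 868 gained regions in which each library has a peak; right, number of deposited peaks of each library on the autosomes and X (bars, 1 per library, coloured by group). The 6 niche libraries hold 609 to 844 members and the 6 distal libraries 9 to 185, and within each model the niche lists are longer than the distal ones.

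The count of members depended on list length. When each list was cut to the 42067 peaks highest by the deposited -log10 p, the number in the shortest list, the rule found 357 regions gained in the niche and 303 in the distal lung. Of the 868 members, 82 (9.45%) overlapped one of those 357. Taking equal numbers drops the lower part of the longer niche lists, where most members stand. How far it draws the 2 counts together by itself was not tested. With a -log10 q of at least 2 the rule found 841 niche and 43 distal regions, and with at least 5 it found 436 and 23. Of the 868 members, 436 overlapped those at 2 and 22 those at 5. At least 4 niche and at most 2 distal libraries gave 4366 and 648 regions, and all 6 and none gave 82 and 4.

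**Figure D2:**
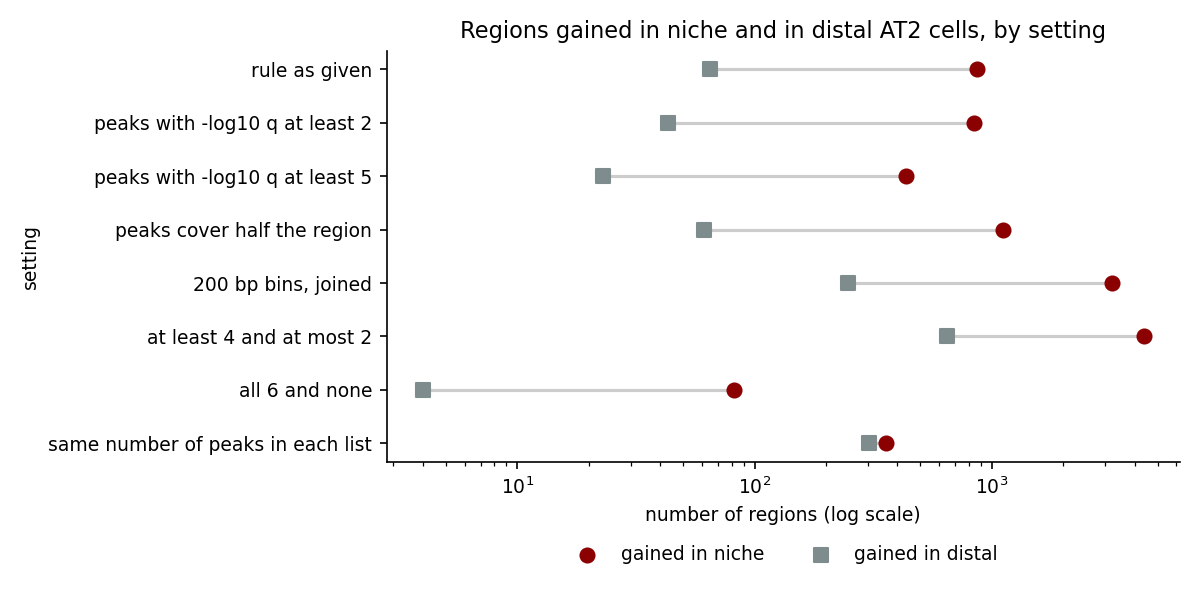
Number of regions gained in niche (circles) and in distal AT2 cells (squares) under the rule as given and 7 alternatives, on a log axis. The circles lie right of the squares in each row, by 868 to 65 under the rule as given and by 357 to 303 with lists of equal length.

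Members stood low in the lists that called them. The mean percentile of a member's -log10 p within the niche lists that held it was 21.4 in the median (3.07 to 60.2), beside 19.05 for the 7580 other regions held by 5 to 7 libraries and 68.8 for the 35222 regions held by all 12. Their median fold enrichment over local background, the authors' value, was 3.65, beside 3.49 and 5.37. The 82 members that stayed with equal lists had a median percentile of 42.6 and a median fold of 4.78, beside 19.8 and 3.60 for the 786 that did not. The lists were cut by the same -log10 p, so members of high percentile stayed in part by construction. Of these 82, 45 were held by all 6 niche libraries and 22 by no distal library, and 13 met both conditions in the full lists.

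Among the members that stayed were the 15 that ranked highest in the niche lists, as a cut by the same -log10 p favours. The highest lay within Atxn1, which encodes the transcriptional regulator ataxin 1 (chr13:45911955-45912197). Peaks covered 237, 223 and 217 bp of it in the 4T1 niche, none, 191 and none in the 4T1 distal, and 207, 187 and none in the CT26 niche libraries. The next lay within Samd4, of an RNA-binding translational repressor (chr14:46989730-46990084), with 259, 268 and 355 bp in the 4T1 niche and 223, none and 313 bp in the CT26 niche, and no distal peak. The third lay within Rps6ka5, of a kinase that phosphorylates histone H3 (chr12:100551865-100552395). It had 531, 430 and 368 bp in the 4T1 niche libraries, against 217 bp, none and none in the 4T1 distal libraries. In CT26 it had 290, 229 bp and none in the niche libraries, against none in the distal libraries. Its fold enrichment, 6.18 in the mean of the niche libraries that held it, was the highest among members.

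Of the other 12, those within Neb (chr2:52319031-52319690), Ryr1 (chr7:29007485-29007963) and Fbp1 (chr13:62870136-62870419) lay in the gene of the muscle protein nebulin, that of a calcium release channel of muscle and that of a gluconeogenesis enzyme. The Neb member had 604, 565 and 489 bp in the 4T1 niche libraries, against none in the 4T1 distal libraries. In CT26 it had 627, 547 and 428 bp in the niche libraries, against 187 bp, none and none in the distal libraries. The Stx16 member, 8133 bp from that SNARE gene (chr2:174067603-174068127), was in all 6 niche libraries, with 246 to 525 bp, and in no distal library. The rest had as nearest gene Gpsm1, Zmat4, Morc2a, Dixdc1, Gm46353, Bcas3, Sfxn4 and Msh3, and 10 of the 15 were held by 1 distal library.

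Members were short and spread over the genome. Their median length was 615 bp (243 to 2478), beside 583 bp for other regions held by 5 to 7 libraries and 1149 bp for regions held by all 12. Within 1 kb of either end of a protein-coding gene lay 85 members (9.79%), inside genes 430 (49.5%) and between genes 353 (40.7%). For the other regions held by 5 to 7 libraries these shares were 6.82%, 56.3% and 36.9%, and for all regions 17.9%, 48.2% and 33.9%. These are descriptions, since regions are not replicates. Of the 840 members on chromosomes with start sites in the RefSeq table, 52 (6.19%) lay within 1 kb of a start site, beside 3.26% and 13.9% in the same sets. The nearest region held by all 12 libraries was 12.6 kb away in the median, and 83 members (9.56%) had another member within 50 kb, beside 6.17% of other regions held by 5 to 7 libraries. The X chromosome held 12 members (1.38%), beside 2.64% of all regions.

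**Figure D3:**
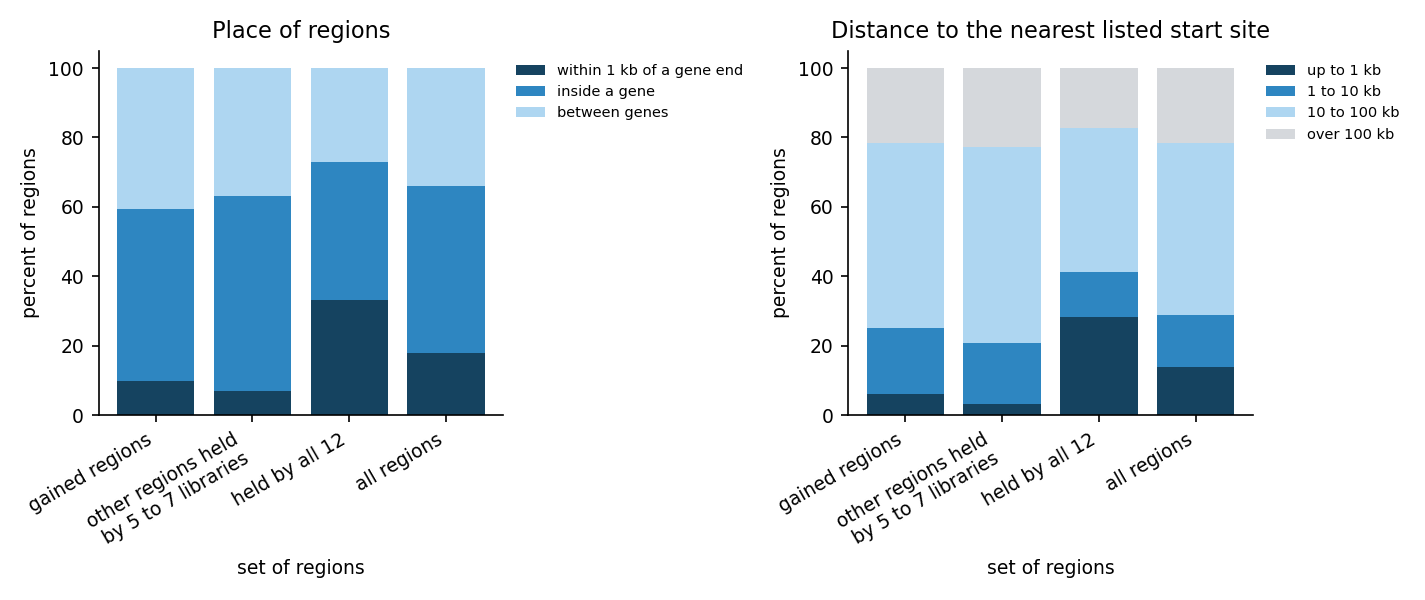
Percent of regions by place (left) and by distance to the nearest listed start site (right) for gained regions, other regions held by 5 to 7 libraries, regions held by all 12 and all regions (stacked bars). Gene ends within 1 kb account for 9.79% of gained regions and 33.2% of regions held by all 12 libraries.

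The start sites of the nearest genes were mostly open in every library. Of the 668 members whose nearest gene had a start site in the table, 71.3% had that start under a peak within 1 kb in all 12 libraries, beside 78.3% for other regions held by 5 to 7 libraries and 80.9% for all regions. Within 50 kb of members, with members left out, scaled peaks covered 3.65 ± 0.023 kb in the 4T1 niche and 3.61 ± 0.029 kb in the 4T1 distal libraries (SD, n = 3 each). In CT26 they covered 3.67 ± 0.017 kb in the niche and 3.59 ± 0.024 kb in the distal libraries. The ratios of niche to distal were 1.01 and 1.02, beside 0.983 and 1.0002 around all regions, after each list was scaled to the same covered length.

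Members had 807 of 21631 protein-coding genes (3.73%) as nearest gene. Of the 369 annotated genes in 30 lists of pathways and cell types, 29 (7.86%) had one, and 31 members were involved, 12 of them held by no distal library. Listed genes were the nearest gene of a region more often in general. Of them 33.6%, beside 22.4% of all genes, were nearest to one of the other regions held by 5 to 7 libraries. Of the 31 members, 15 lay inside the gene. With lists of equal length, 2 of the 31 stayed, those at Ifih1 and Ifit3.

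Of the interferon response list, 2 of 21 genes had a member. Ifih1, which encodes a cytosolic sensor of viral RNA, lay 5714 bp from a region (chr2:62651969-62652255) with 264, 252 and 229 bp in the 4T1 niche and 242, 212 and 224 bp in the CT26 niche. No distal library had a peak there, and the niche libraries of both models were covered to a like length. A member within Ifit3, an antiviral protein gene (chr19:34585980-34586420), had 370, 435 and 393 bp in the 4T1 niche libraries, against none, none and 377 bp in the 4T1 distal libraries, so those groups overlapped. The CT26 niche libraries had 288, 281 and 205 bp there, against none in the CT26 distal libraries. None of the 15 genes on the interferon-inducible GTPase list had a member. This covers the listed symbols only, and a gene of that family outside the list was not counted. With equal lists, the 357 regions had Ifih1, Ifit3 and Trim30a of the interferon list and Ifi47 of the GTPase list as nearest genes. Ifi204, an interferon-inducible gene outside the lists, had a member at its end (chr1:173766719-173767588). It had 778, 825 and 754 bp in the 4T1 niche and 473, 224 bp and none in the CT26 niche libraries, with no distal peak.

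Of the TGF-beta and EMT list, 3 of 18 genes had a member: the ligand gene Tgfb2 and the E-cadherin repressor genes Zeb2 and Snai1. The Zeb2 member, within the gene (chr2:45019443-45020384), had 574, 667 and 670 bp in the 4T1 niche and 305, 302 and 220 bp in the CT26 niche libraries, with no peak in any distal library. The Snai1 member, 27016 bp away (chr2:167569830-167570605), had 676, 723 and 635 bp in the 4T1 niche and 204, 364 bp and none in the CT26 niche libraries. The Tgfb2 member (chr1:186674532-186676469) had 1828, 1684 and 1792 bp in the 4T1 niche, against none in the 4T1 distal libraries. In CT26 it had 229 bp, none and 820 bp in the niche libraries, against none, none and 623 bp in the distal libraries, so the CT26 groups overlapped there. None of these 3 stayed with equal lists, where the list had 1 gene, Smad3.

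Of the NF-kB and acute inflammation list, 3 of 22 genes had a member, and they were the cytokine genes Lif and Il6 and the factor gene Nfkb1. The Lif member (chr11:4299077-4300317), 26563 bp from the gene, had 895, 945 and 1241 bp in the 4T1 niche and 861, 642 bp and none in the CT26 niche libraries, and no distal peak. The Il6 member (chr5:29994000-29994598) was in all 6 niche libraries, with 207 to 530 bp, and had 241 bp in 4T1 distal replicate 1. The Nfkb1 member, within the gene, had 484 bp in that same distal library, against 557, 600 and 485 bp in the 4T1 niche. In CT26 it had 271, 288 bp and none in the niche, against none in the distal libraries.

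The AP-1 list had 1 of 13 genes with a member, and the YAP and TEAD list 2 of 15. The member 4945 bp from Batf3, a bZIP factor gene (chr1:191092974-191093469), was even across niche libraries, with 362, 397 and 387 bp in 4T1 and 406, 318 and 390 bp in CT26, and no distal peak. The member 1446 bp from Ccn1, a matricellular protein gene known as a YAP target (chr3:145651431-145651961), had 388, 507 and 214 bp in the 4T1 niche, against 293 bp, none and none in the 4T1 distal libraries, which overlapped. Lats2, of a kinase that restrains YAP, held a member with 874, 635 and 571 bp in the 4T1 niche and 702 bp, none and 196 bp in the CT26 niche libraries, and no distal peak.

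AT2 marker genes had members at 3 of 15. They were Cebpa, a transcription factor gene of AT2 cells, Lpcat1, of an enzyme that makes surfactant phospholipid, and Napsa, of a protease that processes surfactant protein B. The Napsa member, within the gene (chr7:44574898-44575206), had 200, 304 and 296 bp in the 4T1 niche libraries, against none in the 4T1 distal libraries. In CT26 it had 294, 245 bp and none in the niche, against none, none and 225 bp in the distal libraries, which overlapped. The Cebpa member (chr7:35099529-35099838) lay 19455 bp from the gene, with 223, 287 and 257 bp in the 4T1 niche, against none, 211 bp and none in the 4T1 distal libraries. In CT26 it had 254, 250 bp and none in the niche, against none in the distal libraries.

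**Figure D4:**
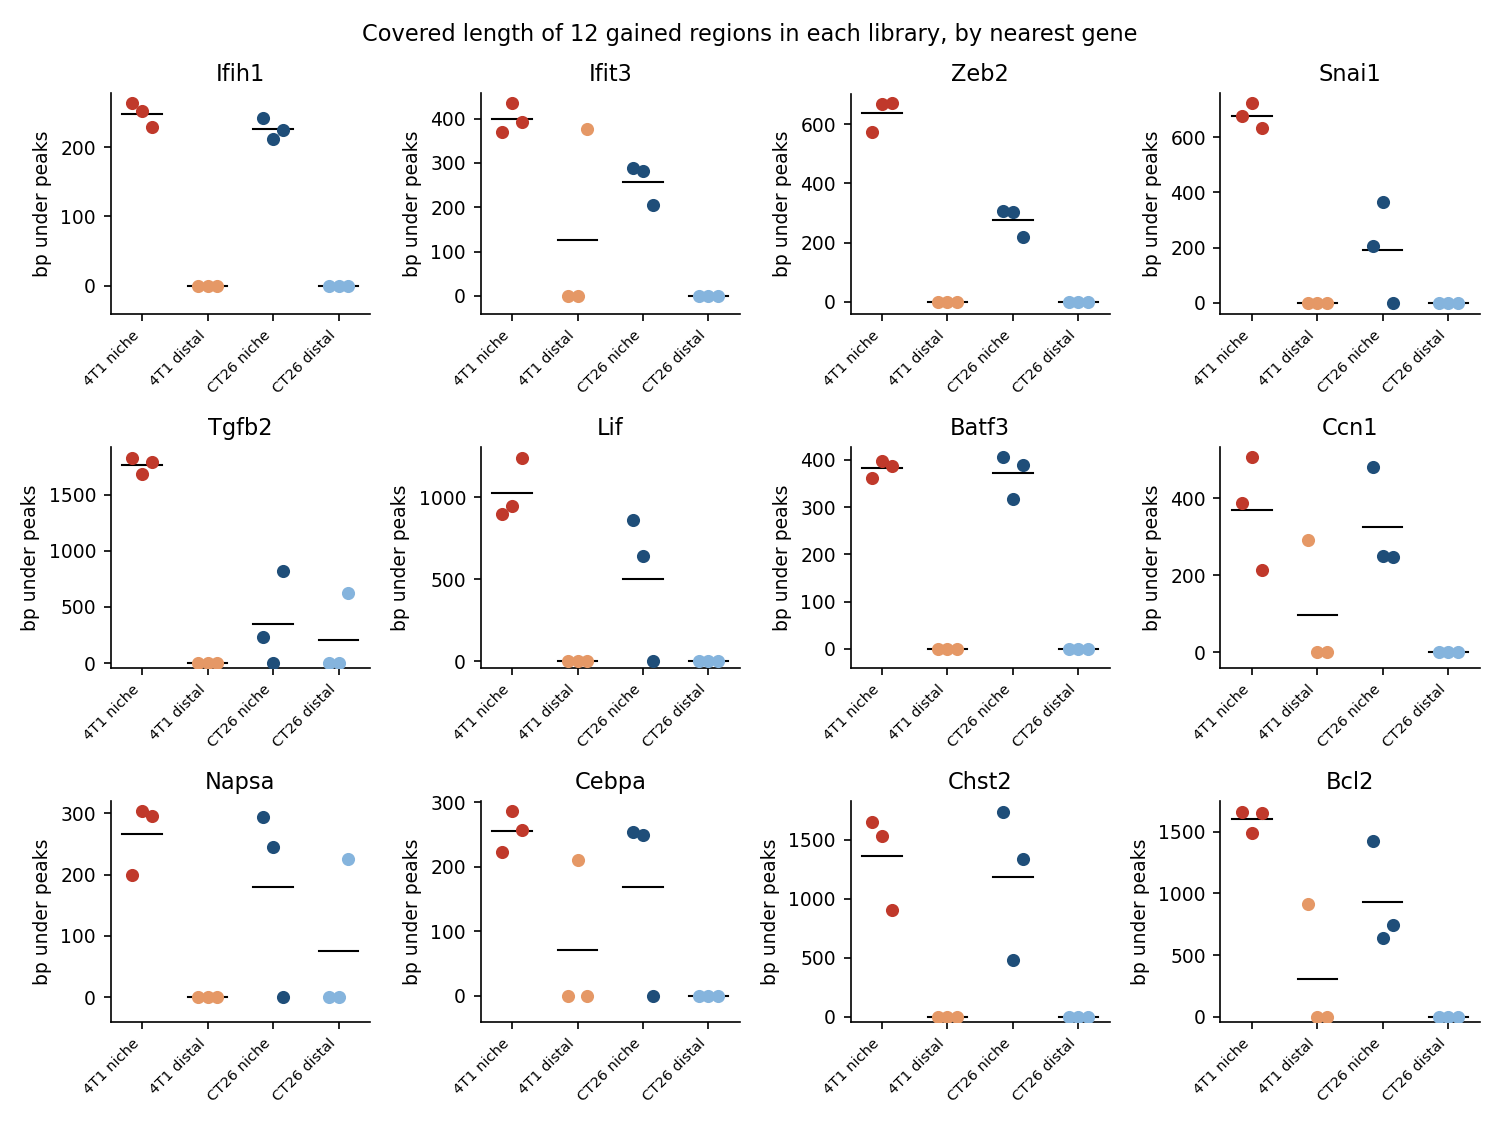
Length under peaks (bp) of 12 gained regions, titled by nearest gene, in each of 3 libraries per group (points), with the group mean (line). The Ifih1 and Batf3 regions are covered to a like length in all 6 niche libraries and in no distal library, while the Zeb2, Snai1 and Tgfb2 regions have lower means in the CT26 niche than in the 4T1 niche.

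Growth and developmental lists held scattered members. Myc, the growth-promoting factor gene, had 1 at 138153 bp, and Tm4sf1, of a membrane protein, had 2. Lef1 and Dkk3 of the 18 Wnt genes, the ERK phosphatase gene Dusp6 and the receptor gene Fgfr2 of the 17 EGF and FGF genes, and Cdk6 of the 13 cell cycle genes had 1 each. Of 14 hypoxia and glycolysis genes, Epas1, Ndrg1 and Vegfa had one, and of 15 lipid synthesis genes Acaca, which encodes acetyl-CoA carboxylase. Vegfa was also the single AT1 marker with a member, of 13, and Cald1 the single transitional alveolar gene, of 19. The MHC class I and class II, collagen, integrin and widely expressed control lists had none.

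Markers of other cell types were looked for because a sorted fraction can hold other cells. Lists of macrophage, neutrophil, lymphoid, basal, club, ciliated, mammary and intestinal markers had no member. The fibroblast list had 2 of 10, Lum and Pdgfrb, and the endothelial list 1 of 10, Erg, with 2 members. The Erg member within the gene (chr16:95573054-95573669) had 306, 499 and 504 bp in the 4T1 niche and none, 196 and 202 bp in the CT26 niche libraries, with no distal peak. Lum, of a matrix proteoglycan, had a member at 17250 bp with 1124, 498 and 318 bp in the 4T1 niche, against none, 192 bp and none in the 4T1 distal libraries.

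The start sites of marker genes were set against the AT2 label. Of 11 AT2 markers in the start-site table, 10 or 11 had a peak within 1 kb of the start in each library. Of 6 fibroblast markers, 3 to 4 did in 4T1 niche and 1 to 2 in 4T1 distal libraries, and 2 to 3 in CT26 niche and 1 to 2 in CT26 distal libraries. Pdgfra and Tbx4 were open in no library. Endothelial markers were open at 4 to 5 of 7 starts in the 4T1 niche and at 4 in each library of the other groups, with Tie1 and Emcn at none. Neutrophil and lymphoid markers, 7 each, were open in no library, and of 7 macrophage markers 1 was open in each. Markers of other epithelia were open in every group: 9 to 11 of 11 for AT1, 4 to 5 of 7 for mammary epithelium, 2 to 3 of 4 for club and 2 to 3 of 4 for ciliated cells. Of 3 basal markers 0 to 1 was open, and of 5 intestinal markers none. An open start does not by itself show which cell type it came from. The number of open fibroblast marker starts was thus higher in the niche libraries of 4T1 and overlapped between the CT26 groups, and its part in the gain of members was not tested. Smaller shifts, with overlap, were seen between 4T1 niche and distal libraries in other lists. They were 10 to 11 beside 9 to 10 for AT1, 2 to 3 beside 2 for club, and 5 beside 4 to 5 for mammary markers. Endothelial markers had 4 to 5 beside 4, and AT2, macrophage, basal and ciliated ranges were equal in these 2 groups. In bulk lists, a change in all AT2 cells, a change in some of them and a different mix of cells cannot be told apart.

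The 10 widest members lay at gene ends or inside genes. After Chst2, the longest mean coverage was within Bcl2, which encodes an inhibitor of apoptosis (chr1:106628881-106630543). It had 1663, 1489 and 1655 bp in the 4T1 niche, against 911 bp, none and none in the 4T1 distal libraries. In CT26 it had 1422, 636 and 744 bp in the niche, against none in the distal libraries. The longest region, 2478 bp at Dram1, a p53-induced gene of autophagy (chr10:88320962-88323439), had 2112, 1620 and 521 bp in the 4T1 niche and 777, 869 bp and none in the CT26 niche libraries. Others of the 10 widest were at Tgfb2, Kirrel3, Btbd9, Rnf144a, Dclk2 and Ralgapa2, and none of the 10 stayed with equal lists.

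At gene ends, the members that ranked highest were those of Serping1, Atox1, Nhej1 and Dmac2l. Serping1, of the inhibitor of complement C1 (chr2:84774720-84775142), had 247, 318 and 408 bp in the 4T1 niche libraries, against none in the 4T1 distal libraries. In CT26 it had 239, 365 and 276 bp in the niche, against 215 bp, none and none in the distal libraries. A member at the histone H4 gene H4c9 (chr13:22040871-22041482) was in all 6 niche libraries, with 317 to 482 bp, and in no distal library. Both it and the Serping1 member stayed with equal lists. Histone genes have near-identical copies, so reads there may be shared between them. The others of these 10 lay at Ctf1, of the cytokine cardiotrophin 1, and at Ifi204, Ormdl1, Calm3 and Calml4.

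A few genes were the nearest gene of more than 1 member, at times over a long distance. Of the 807 genes, 749 had 1, 55 had 2, and Epha4, Cacna1c and Ubl3 had 3. The Epha4 members lay 836989, 721943 and 23271 bp from the gene, and the Ubl3 members 19521 to 143438 bp. The 3 members within Cacna1c, a calcium channel gene (chr6:118839169-118839860, chr6:119001468-119001836 and chr6:119139529-119139920), were all held by 4T1 distal replicate 1, with 431, 194 and 207 bp, and by no other distal library. In the niche libraries the first had 442 to 692 bp. Of genes with 2, Tgfbr3 is a TGF-beta co-receptor, Thbs1 and Thbs2 encode thrombospondins, and Nrp1 is a co-receptor of semaphorins and VEGF. The Thbs1 members lay 72051 and 66679 bp from the gene. Thbs1 was also the nearest gene of a region of the opposite rule (chr2:117807046-117807728), held by 5 distal libraries and 1 niche library. The second Tgfbr3 member (chr5:107087230-107088573) had 1162, 1282 and 1225 bp in the 4T1 niche and 1174 bp, none and 289 bp in the CT26 niche libraries, with no distal peak.

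The threshold cut through a continuum. The 403 members with 5 niche libraries and 1 distal library, just inside it, had a median length of 586 bp and a median percentile of 20.7. The 693 regions with 5 and 2 had 664 bp and 21.2, and the 794 with 4 and 1 had 563.5 bp and 17.97. In the 559 members with 1 distal library, that library's peak covered 297 bp in the median and the niche mean was 374 bp. In 169 of them (30.2%) the distal peak was the longer one.

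Between the 2 models, most members were covered less in the CT26 niche than in the 4T1 niche. The rule asks for a peak in at least 5 of these same 6 niche libraries, so the values of members are a description, and nothing is read from how many passed. The covered length of each region, scaled to the same total per library, was compared in limma over the 59711 regions with a peak in at least 3 niche libraries, on the log2(length + 500 bp) scale. Of all regions tested, 729 (1.22%) were higher and 3028 (5.07%) lower in the CT26 niche, 6.29% in all, and of the 868 members 0 and 0 passed at an adjusted p under 0.05. At an unadjusted p under 0.05, 28 of the 868 members were higher and 44 lower. Over all 59711 regions tested, 11532 were higher and 5619 lower, 28.7% in all. A member can be missing from no more than 1 niche library, which limits how far the models can differ in it. Of the members 269 had a positive and 599 a negative difference, with a median of -0.14, beside 0.07 over all regions. Without scaling the medians were -0.26 and -0.12.

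The Zeb2 member averaged 276 ± 48.2 bp under peaks in the CT26 niche and 637 ± 54.6 bp in the 4T1 niche (SD, n = 3 each, unscaled). Its log2 difference was -0.39 ± 0.10 (SE). The Tgfb2 member had the largest difference of those described above, with a log2 difference of -1.31 ± 0.36 (SE). The Snai1 member had -0.65 ± 0.22 and the Ifi204 member -0.70 ± 0.23. For the Ifih1 member the difference was 0.06 ± 0.09 and for the Batf3 member 0.12 ± 0.09.

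**Figure D5:**
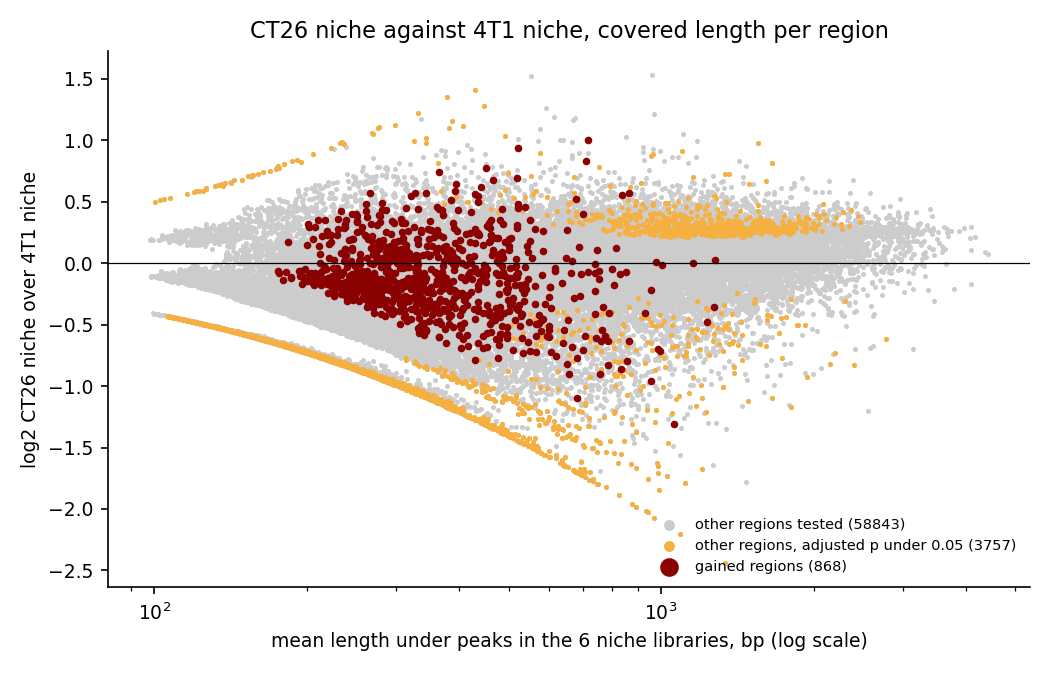
Log2 difference in covered length, CT26 niche over 4T1 niche, against the mean length under peaks in the 6 niche libraries (bp, log axis), for 868 gained regions (dark red), other regions (grey) and other regions that passed (orange). Of the gained regions 599 lie below 0 and 269 above.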

How the data were processed

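Omni-ATAC-seq peak lists of 12 libraries were used, 3 for each of 4 groups set by the sample titles. The authors deposited broad peaks in GRCm38 coordinates, and the tools MACS2 and bedtools are named, without versions or settings, per the submitters' processing notes. The aligner is not given in the sources used here. Columns used as deposited were the peak's start and end in bp, its fold enrichment (a ratio of signal to background in that library), and its p-value and q-value as −log10. The deposited −log10 q was at least 1. The deposited lists give no read counts, so depth is unknown and intervals from counts were not possible.

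Autosomal (19 chromosomes) and X peaks were merged where they overlapped by at least 1 bp. Covered length is the bp of a region under a library's peaks. Percentiles rank the deposited −log10 p within a list. Genes are RefSeq's 21631 protein-coding ones for GRCm38.p6, without strand, and start sites and promoter sequences come from the RefSeq promoter table. That table lacks the start of some genes. A genome sequence was not used here, so the planned GC and motif description of the regions was replaced by promoter windows after the files were seen.

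The models were compared in limma 3.58.1 (R 4.3.3) on log2(scaled covered length + 500 bp) over the 6 niche libraries, with trend and Benjamini-Hochberg adjustment. The script was tested on simulated data. Peak numbers were compared by exact permutation tests. Tables were handled in Python 3.11.15 with pandas 2.3.3. Whether same-numbered samples pair was checked by the correlation of their deviations from group means, which was -0.01 to 0.05 in 9 pairs. No pairing by number was seen in covered length, which cannot exclude that same-numbered samples shared lungs. The main fit was therefore unpaired. Alternatives changed the peak threshold, list length, merging, overlap, bins, the rule, the scaling, the pseudocount, the filter, the samples of the fit, and left out each library.

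The members and the gene lists were chosen with earlier results of these data known. Named members are the 15 of highest mean percentile, the 10 with the longest mean coverage in niche libraries, those whose nearest gene is listed, the 10 of highest percentile within 1 kb of a gene end, and genes nearest to at least 2 members, from which the text draws a selection, and 1 member is not reported here. The other promoters named were chosen after their values were seen. Of 370 listed symbols 369 were in the annotation.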

Additional observations from a re-analysis of the deposited data

How the results depend on the processing

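The count of 868 members became 436 with a -log10 q of at least 5, 357 with lists of equal length, 82 with all 6 niche and no distal library, 4366 with at least 4 niche and at most 2 distal libraries, and 3212 stretches of 200 bp bins. It was 841 with a -log10 q of at least 2, 868 with gaps of 100 bp joined, and 1110 with at least 50% of the region covered. Of the 868 members, 327 were shared with the last of these and 867 overlapped those with gaps joined. Leaving out single libraries gave 926 to 1779, since the rule then asks 4 of 5 niche libraries or sets fewer distal ones. Counts over 1.5 times the main one came without 4T1 distal replicate 1 (1452), 2 (1526) or 3 (1359) and without CT26 niche replicate 1 (1352), 2 (1736) or 3 (1779). The share of members at gene ends, 9.79%, was 13.4% within 2 kb and 7.84% with equal lists.

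In CT26 niche against 4T1 niche, the 729 higher regions became 62 without scaling, 1224 without the filter, 3373 with all 12 libraries and 300 with equal lists, and the 3028 lower regions became 350 with equal lists. With the replicate number as a block, 0 regions were higher and 0 lower in limma, with 2 residual degrees of freedom (9541 higher and 5619 lower at an unadjusted p under 0.05). No pairing by number was seen in covered length, but that check cannot exclude it. Without single niche libraries the counts were 0 to 6340 higher and 0 to 5318 lower. Both were 0 without any one 4T1 niche replicate, 6340 and 5318 without CT26 niche replicate 1, 34 and 779 without replicate 2, and 25 and 617 without replicate 3. Members called higher, 0 in the main setting, were 1 with a pseudocount of 100 bp, 6 with all 12 libraries, 8 of 253 regions with equal lists, and 0 to 4 without single libraries. Members called lower, also 0, were 3 without scaling, 7 with all 12 libraries, 12 with equal lists, and 0 to 16 without single libraries. The causes were not tested. The difference in peak number kept its direction with a -log10 q of at least 2 and without each library (7199 to 8794 in 4T1, 3477 to 7490 in CT26). The unknown depth limits all counts of regions.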

Other observations

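Where regions were replaced by 200 bp bins covered by a peak to at least 50%, 3212 stretches met the niche rule and 247 the opposite one. Of the niche stretches, 748 (23.3%) lay in members, 1422 (44.3%) inside regions held by all 12 libraries, and 1042 in other regions. Of the 247 distal stretches, 116 (47.0%) lay inside regions held by all 12 libraries. The 1422 stretches covered 353.8 kb, and 504 of them (35.4%) lay within 1 kb of a gene end, beside 33.2% of the regions held by all 12 libraries. The longest were 1200 bp, within Trim9, at an end of Galnt18 and 5611 bp from Mesp1. Stretches of 1000 bp lay at an end of Plekhb2, within Pgap2 and 67647 bp from Noct. Others of 1000 bp lay within Osmr, which encodes a receptor for the cytokine oncostatin M, and at an end of Epha7, a receptor tyrosine kinase gene. Among listed genes, the stretches of at least 600 bp lay within the endothelial adhesion gene Pecam1 (800 bp), at ends of the metalloprotease gene Adamts1 (800 bp) and the MHC class II gene H2-DMa (800 bp), and outside Nfkbia, which encodes an inhibitor of NF-kB, and Spry2, which encodes an inhibitor of growth factor signalling (600 bp each). These were named after their values were seen.

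With lists of equal length, 10 of 369 listed genes (2.71%) were nearest to one of the 357 gained regions, beside 1.61% of all protein-coding genes. They were Ifih1, Ifit3, Trim30a and Ifi47 of the interferon lists, Areg and Egfr, which encode an EGF receptor ligand and the receptor, Cd44, Myc, Smad3 and the leukocyte gene Ptprc. The Egfr region lay within the gene (chr11:16830583-16831048) and met the rule in all 6 niche libraries and 1 distal library of these lists. The Ifi47 and Trim30a regions lay at gene ends, and the Myc region lay 8440 bp from the gene, apart from the member described above at 138153 bp. The Ptprc region lay 205157 bp from the gene.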
